A study of Mus musculus with 72 samples.

Results

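Bile acid synthesis and transport genes were followed here as 10 genes of 55416 in the deposited count table, taken by their Ensembl identifiers: Cyp7a1, Cyp8b1, Cyp27a1, Cyp7b1, Baat, Slc10a1, Abcb11, Nr1h4, Nr0b2 and Slc27a3. The counts came from RNA sequencing of liver, epididymal white adipose tissue (eWAT) and pituitary of 24 male FVB.129P2 mice, the sighted form of FVB, with 6 mice in each of 4 groups. FED offspring came from dams fed ad libitum. CR20 offspring came from dams held to 20% calorie restriction from late gestation until weaning. From 8 weeks of age the offspring ate either a control diet with 10% of its energy as fat (CTRL) or a high fat diet with 45% (HFD), which gave the groups FED-CTRL, FED-HFD, CR20-CTRL and CR20-HFD. The diets lasted 10 weeks by the study's account of these libraries, whereas the labels also name a longer feeding and do not say which mice had it. All 4 groups carried the same genotype, and the dam of each mouse and the hour of collection are not given in the sources used here, so littermates could not be told from unrelated mice.

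Bile acids are made from cholesterol in hepatocytes. The classic pathway opens with CYP7A1, its rate-limiting enzyme, and CYP8B1 then sets how much cholic acid is made. The alternative pathway uses CYP27A1 and CYP7B1, BAAT joins bile acids to taurine or glycine, and NTCP (Slc10a1) and BSEP (Abcb11) carry them into the hepatocyte and out into bile. The nuclear receptors FXR (Nr1h4) and SHP (Nr0b2) form the feedback arm that lowers synthesis when bile acids accumulate. Slc27a3 is an acyl-CoA synthetase of the family that also holds the bile acid CoA ligase Slc27a5.

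On GRCm39, the build of the files, Slc10a1 lies on chromosome 12 (80996372 to 81015479, minus strand), Abcb11 on chromosome 2 (69068544 to 69173315, minus strand), Cyp7a1 on chromosome 4 (6265612 to 6275633, minus strand) and Cyp8b1 on chromosome 9 (121743422 to 121745371, minus strand). Counts are sums over the exons of a gene. Slc10a1 shares 268 exon bases with Srsf5 on the opposite strand and Cyp27a1 shares 1088 with Prkag3. The strand setting of the counting is not stated, so reads of these pairs may not be told apart.

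RefSeq promoter windows on GRCm38.p6 were available for 7 of the 10 genes, and for Cyp7a1, Cyp7b1 and Baat none was listed. The 250 bases before the annotated start are printed for the 2 transporters that the diet results turn on and for Cyp8b1, which varied against Abcb11 between livers. The second listed start of Slc10a1 is shown (chr12:80968080-80968329, minus strand), with Abcb11 (chr2:69342617-69342866, minus strand) and Cyp8b1 (chr9:121916306-121916555, minus strand). Each reads 5′ to 3′ toward the start, and capitals mark the letters found by the search.
Slc10a1: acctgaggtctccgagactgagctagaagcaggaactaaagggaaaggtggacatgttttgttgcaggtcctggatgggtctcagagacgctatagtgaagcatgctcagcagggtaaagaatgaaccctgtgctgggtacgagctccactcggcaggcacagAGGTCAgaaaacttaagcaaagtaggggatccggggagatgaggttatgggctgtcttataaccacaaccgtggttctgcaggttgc
Abcb11: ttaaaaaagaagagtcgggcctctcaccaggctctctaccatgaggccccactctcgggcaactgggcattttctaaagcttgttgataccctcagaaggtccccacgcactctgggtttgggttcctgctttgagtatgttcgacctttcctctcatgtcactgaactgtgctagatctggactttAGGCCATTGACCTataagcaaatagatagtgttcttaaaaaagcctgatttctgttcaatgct
Cyp8b1: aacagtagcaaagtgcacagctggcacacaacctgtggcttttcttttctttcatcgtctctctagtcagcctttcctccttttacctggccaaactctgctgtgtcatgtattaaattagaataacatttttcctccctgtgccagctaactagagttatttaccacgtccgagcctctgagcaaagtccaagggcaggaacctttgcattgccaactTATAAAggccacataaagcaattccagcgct
The search covered both strands for AGGTCA, the core site of many nuclear receptors, for its inverted repeat AGGTCANTGACCT (IR-1, the arrangement FXR is known to bind) with up to 1 mismatch, for TATAAA and for the E-box CACGTG. Slc10a1 held AGGTCA at bases 164 to 169 of the window shown, and the window of its first listed start (chr12:80968706-80968955) held none, with only a TATAAA on the minus strand at bases 123 to 128. Abcb11 held AGGCCATTGACCT, an IR-1 with 1 mismatch, at bases 188 to 200, and the AGGTCA on the minus strand at bases 195 to 200 is part of it. Cyp8b1 held TATAAA at bases 220 to 225. Of 32851 windows of 300 bases, 16.3% held AGGTCA, 0.0822% held the IR-1 with up to 1 mismatch and 13.6% held TATAAA. These are matches of letters and say nothing about binding.

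All 10 genes passed the filter on low counts in liver, where 13787 genes were tested. Total counts ranged from 9842813 to 19928212 per liver. Hepatocyte markers were present in all livers (8 of 8 genes, summed level 83500 to 125000 CPM, counts scaled to a common library size), with group medians of 109000 in FED-CTRL, 97500 in FED-HFD, 105000 in CR20-CTRL and 94400 in CR20-HFD. Kupffer cell markers summed to medians of 462, 565, 435 and 556 CPM in the same order (303 to 1010 over all livers), and pericentral hepatocyte markers to medians of 10800, 12100, 8510 and 12200 CPM (5390 to 18400). The part of these in the results was not tested, and in bulk tissue fewer cells of a type and less RNA per cell cannot be told apart. Within the groups 1 axis held 60.8% of the variance of 6028 well expressed genes, and 6 of the 24 livers stood apart on it, with scores of 0.216 to 0.539 against at most 0.013 in the other 18. They were FED-CTRL mice 14 and 41, FED-HFD mouse 11, CR20-CTRL mice 4 and 5, and CR20-HFD mouse 32. Mitochondrial genes took 1.56% to 4.15% of their counts against 4.75% to 8.03% in the others.

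Of the 10 genes, Slc10a1 alone passed the adjusted p for diet in liver, with lower RNA on HFD, and Abcb11 came next without passing. Averaged over the maternal groups, Slc10a1 was 25.6% lower on HFD (log2 fold change -0.43, 95% interval -0.63 to -0.23, edgeR adjusted p = 0.0191) and Abcb11 had a fold of 0.77 (log2 fold change -0.38, interval -0.59 to -0.16, adjusted p = 0.063). A call required an adjusted p of at most 0.055 and a log2 fold change of at least 0.58 in size, so Slc10a1 passed the first condition only and Abcb11 neither. Of the 10 genes, 0 were called in any of the 7 liver comparisons, by edgeR, limma voom or DESeq2. For the diet averaged over maternal groups 1.26% of all genes were called, and 1.83% passed the adjusted p alone. At an unadjusted p under 0.05, 3 of the 10 passed (Slc10a1 and Abcb11 lower, Cyp7b1 higher), against 13.2% of all genes. The median log2 fold change of the 10 was 0.00, beside -0.01 over all genes. In the same comparison 1 of 6 Kupffer cell markers (Marco, 1.11 on the log2 scale) and 1 of 6 pericentral markers were called, with 3 of these 6 past the adjusted p and all 6 higher on HFD, and 0 of 8 hepatocyte and 0 of 6 periportal markers were called by edgeR. Their part in the diet differences was not tested.

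Slc10a1 encodes NTCP, the sodium-dependent carrier that takes conjugated bile acids up from portal blood. In FED-CTRL livers its level ran from 741 to 963.2 CPM with a median of 870.4. In FED-HFD livers it ran from 528.6 to 698.5 with a median of 614.2. Every FED-HFD liver was therefore below every FED-CTRL liver, as held in that direction for 0.457% of all genes. The log2 fold change was -0.49 (SE 0.138), with an exact permutation p of 0.00216, the smallest that 6 against 6 mice can give, and an edgeR adjusted p of 0.287. In this comparison 0.109% of genes were called.

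In CR20-CTRL livers Slc10a1 ran from 507.8 to 935.8 CPM (median 839.6), and in CR20-HFD livers from 500.5 to 684.3 (median 610.7). The CR20 groups overlapped through CR20-CTRL mice 5 and 4, at 507.8 and 586.3 CPM, while the other 4 CR20-CTRL livers lay at 839.5 to 935.8. Both low livers belong to the 6 that stood apart, but the rest of the 6 were not low for their groups. The FED-CTRL livers apart were at 809.7 and 937.8 CPM and the FED-HFD one at 614.2, within the range of the others. The CR20-HFD one, at 684.3, was the highest of its group. The log2 fold change in CR20 mice was -0.36 (edgeR adjusted p = 0.39, exact permutation p = 0.0844), and 0.522% of genes were called. Without the 6 livers, a choice made after seeing the data, it was -0.61 (SE 0.111, adjusted p = 0.0117), which was a call, and 0.55% of genes were called. The averaged difference was then -0.55 (adjusted p = 0.000593). The difference between the maternal groups in the diet response of Slc10a1 was 0.13 on the log2 scale (interval -0.27 to 0.53, edgeR adjusted p = 0.999), and it turned to -0.13 without the 6 livers and -0.10 with limma voom.

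Abcb11 encodes BSEP, the pump that exports bile salts across the canalicular membrane. Its level was 176.6 to 266.2 CPM in FED-CTRL livers (median 208.7) and 133.8 to 186.2 in FED-HFD livers (median 158.6). It was 178.3 to 322.1 CPM in CR20-CTRL livers (median 230) and 146.6 to 226.4 in CR20-HFD livers (median 194.2). The HFD groups were lower in median and their ranges overlapped those of the CTRL groups. The log2 fold change was -0.43 in FED mice (edgeR adjusted p = 0.468, exact permutation p = 0.00649) and -0.32 in CR20 mice (adjusted p = 0.505, exact permutation p = 0.0758). Averaged over the maternal groups its adjusted p was 0.0399 with limma voom and 0.0169 with DESeq2, so whether it passed 0.055 depended on the test. The 2 diet comparisons share no mice with each other, but each shares its mice with the averaged one and with the comparisons between maternal groups.

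**Figure D1:**
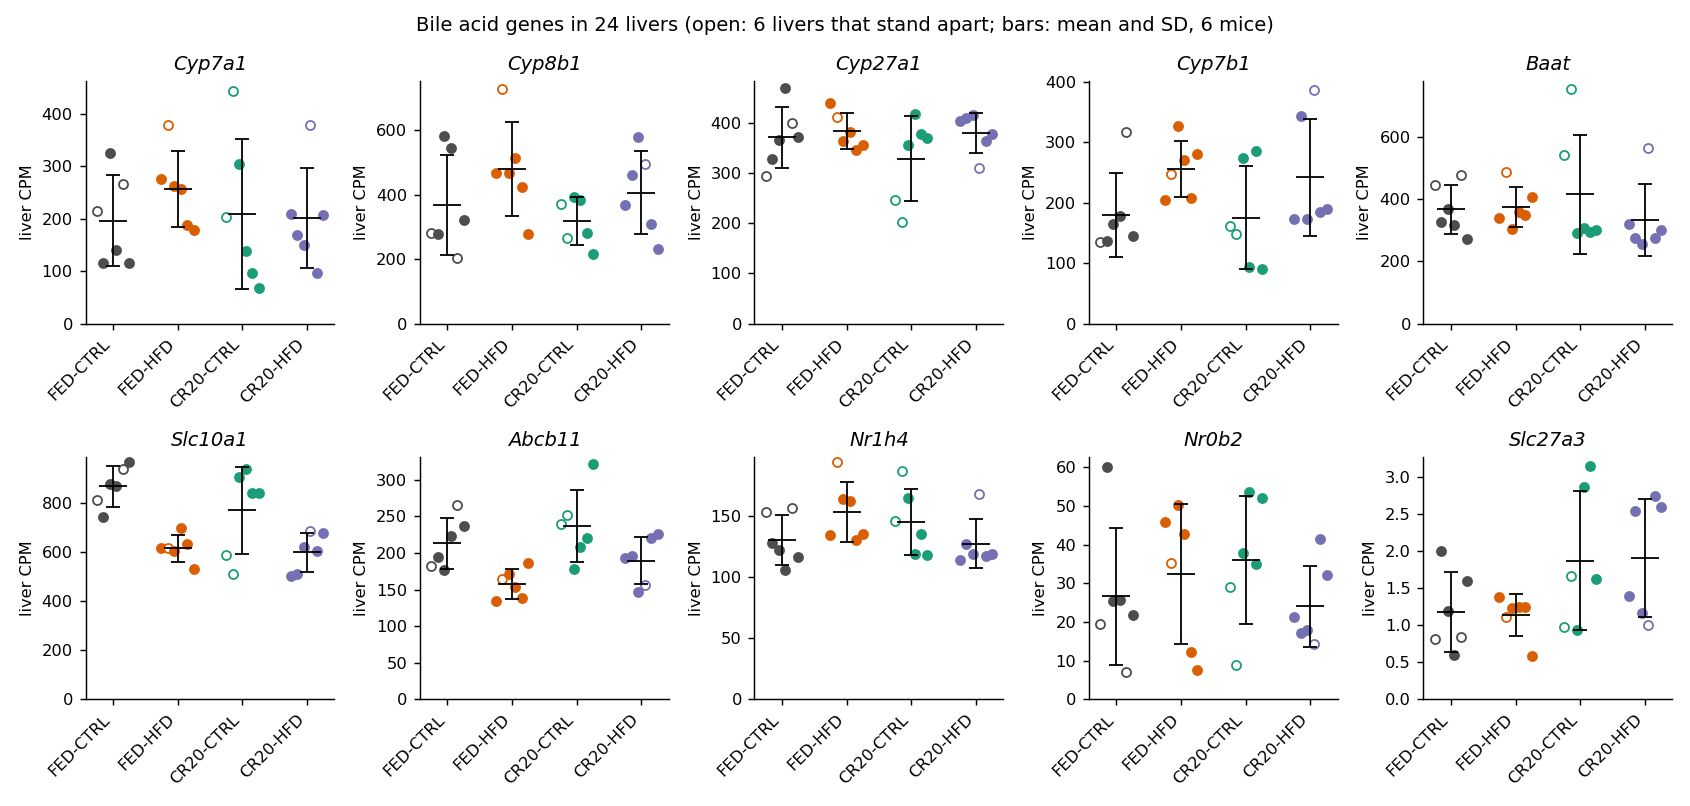
Level of the 10 bile acid genes in liver in CPM, 1 panel a gene on a linear axis from 0, with 1 point for each of 6 mice in a group, open for the 6 livers that stood apart, and black bars for mean and SD. Slc10a1 in FED-HFD livers (528.6 to 698.5 CPM) sits below all FED-CTRL livers (741 to 963.2 CPM), whereas Nr0b2 is spread widely in every group. Cyp7a1 is spread most in CR20-CTRL (67.88 to 443.3 CPM) and least in FED-HFD (178.9 to 378.8 CPM).

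The enzymes of the classic pathway did not pass the test for diet. Cyp7a1 ran from 115 to 324.3 CPM in FED-CTRL (median 177), from 178.9 to 378.8 in FED-HFD (259.5), from 67.88 to 443.3 in CR20-CTRL (171.2) and from 97.09 to 377.5 in CR20-HFD (187.8). All 4 groups overlapped over most of their range. Its averaged log2 fold change was 0.17, with an interval from -0.38 to 0.72 that leaves room for a change in either direction (edgeR adjusted p = 0.846). It was 0.39 in FED mice (adjusted p = 1) and -0.05 in CR20 mice.

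Cyp8b1, the sterol 12-alpha-hydroxylase needed for cholic acid, ran from 204.2 to 581.2 CPM in FED-CTRL (median 300.9) and from 277.9 to 725.7 in FED-HFD (466.2). In CR20-CTRL it ran from 216.3 to 393.5 (325.6) and in CR20-HFD from 231.7 to 577.9 (412.6). Its medians were higher on HFD within each maternal group, and the ranges overlapped. The averaged log2 fold change was 0.37 (interval -0.01 to 0.74, edgeR adjusted p = 0.393), with 0.38 in FED mice and 0.35 in CR20 mice. Without the 6 livers apart the averaged value was 0.14 and the value in FED mice 0.002, where the other 4 FED-CTRL livers ran from 276.6 to 581.2 CPM and the other 5 FED-HFD livers from 277.9 to 512.7.

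In the alternative pathway, Cyp7b1, the oxysterol 7-alpha-hydroxylase, ran from 135.5 to 316.6 CPM in FED-CTRL (median 155) and from 204.2 to 326.1 in FED-HFD (259). In CR20-CTRL it ran from 90.24 to 285.9 (154.6) and in CR20-HFD from 173.3 to 386.1 (186.6). A single FED-CTRL liver, mouse 41 at 316.6, reached into the upper part of the FED-HFD range. The averaged log2 fold change was 0.49 (interval 0.07 to 0.90, exact permutation p = 0.017, edgeR adjusted p = 0.279). It was 0.51 in FED mice and 0.46 in CR20 mice. Alternatives other than leaving out single mice gave 0.51 to 0.72 and 0.18 to 0.46. Among livers that did not stand apart, a choice made after seeing the data, FED-CTRL (137.1 to 177.6 CPM) lay below FED-HFD (204.2 to 326.1). The CR20 medians of such livers were close (183.1 CPM in CR20-CTRL, 184.3 in CR20-HFD), so the higher median was clear in FED mice only. Cyp27a1, the mitochondrial sterol 27-hydroxylase, had group medians between 364 and 391.1 CPM and an averaged log2 fold change of 0.13 (edgeR adjusted p = 0.665).

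Baat, the conjugating enzyme, had medians of 348.5 CPM in FED-CTRL, 354.4 in FED-HFD, 304.8 in CR20-CTRL and 288.6 in CR20-HFD, and an averaged diet log2 fold change of -0.15 (edgeR adjusted p = 0.763). Nr1h4, the bile acid receptor FXR, had medians of 125, 148.4, 140 and 118.6 CPM in the same order, and its diet log2 fold change was 0.02 (adjusted p = 0.95). The diet difference of Nr1h4 was lower in CR20 than in FED mice by -0.42 on the log2 scale (interval -0.83 to -0.01), with an unadjusted p of 0.0471 and an edgeR adjusted p of 0.999, and 1.76% of all genes had an unadjusted p under 0.05 in that comparison. Nr0b2, the corepressor SHP induced by FXR, had medians of 23.6, 39.02, 36.42 and 19.59 CPM and a diet log2 fold change of -0.15 (adjusted p = 0.892). The ranges of these 3 genes overlapped between all groups, and none passed the test for diet.

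**Figure D2:**
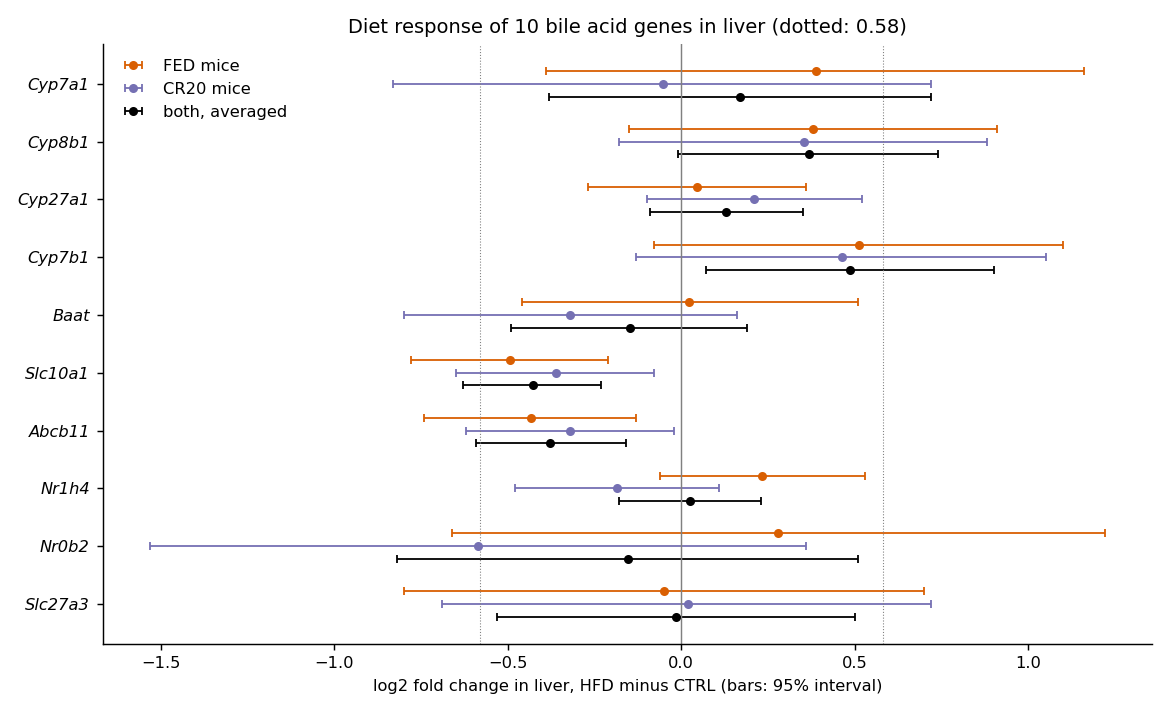
Log2 fold change in liver, HFD minus CTRL, for the 10 genes in FED mice, in CR20 mice and averaged over both, with 95% intervals from edgeR and dotted lines at 0.58 in size. The averaged intervals of Slc10a1 (-0.63 to -0.23), Abcb11 (-0.59 to -0.16) and Cyp7b1 (0.07 to 0.90) do not reach 0, and no averaged value reaches 0.58 in size.

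Maternal restriction gave no call among the 10 genes in liver: 0 of 13787 genes were called by edgeR for CR20 against FED averaged over the diets, and 4% had an unadjusted p under 0.05. Slc27a3 came closest. It ran from 0.5918 to 2.003 CPM in FED-CTRL, 0.5804 to 1.378 in FED-HFD, 0.9371 to 3.144 in CR20-CTRL and 1.006 to 2.747 in CR20-HFD. Its log2 difference was 0.72 (SE 0.249, exact permutation p = 0.0169, edgeR adjusted p = 0.999), with the groups overlapping and with levels close to 1 CPM. The averaged diet log2 fold change of Slc27a3 was -0.02 (edgeR adjusted p = 0.989). Abcb11 differed by 0.21 (exact permutation p = 0.0541, adjusted p = 0.999). The median log2 difference of the 10 for CR20 against FED was -0.06, beside 0.03 over all genes. In CR20-CTRL against FED-CTRL 2.17% of genes had an unadjusted p under 0.05 and in CR20-HFD against FED-HFD 3.58%, with 0 calls in each, and of the 10 genes 0 and 1 (Slc27a3) did.

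Levels were compared between genes per exon length. Median RPKM (CPM divided by exon length in kilobases) over 24 livers was 203.9 for Slc10a1 (150 to 288.6), 192.6 for Cyp8b1 (104.7 to 372.2), 148.3 for Baat and 111.8 for Cyp27a1. It was 49.24 for Cyp7a1 (16.26 to 106.2), 34.83 for Abcb11 (24.07 to 57.93), 27.25 for Nr1h4, 15.84 for Cyp7b1, 12.73 for Nr0b2 and 0.33 for Slc27a3. Neighbours in this order overlapped, apart from Nr0b2 (3.327 to 27.92) and Slc27a3 (0.1533 to 0.8307). Exon length was the union of all annotated exons of a gene, from an annotation release that may differ from the one counted on. The order depends on these lengths: in median CPM, Cyp7b1 (186.6) lay above Nr1h4 (132.2).

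The genes also differed in how much they varied between mice of a group. Nr0b2 varied most, with a within-group SD of 0.935 on the log2 scale, larger than in 95.3% of liver genes, and its highest liver was 8.39 times its lowest. Cyp7a1 followed with an SD of 0.71, larger than in 86.6%, and a ratio of 6.53. Slc10a1 (0.228), Nr1h4 (0.231), Abcb11 (0.243) and Cyp27a1 (0.26) varied less, with 13% to 19.9% of genes below them. These shares are over all genes tested in liver, those with low counts included, whose median SD was 0.405. Among the 6037 genes with a mean log2 CPM of at least 4 the median was 0.311 and the 90th percentile 0.601. The shares were not computed within that level. The feedback corepressor and the rate-limiting enzyme were thus the most variable members, and both carriers were among the steadiest. Over 24 livers, the deviations of 12 clock genes correlated with those of Cyp7a1 from -0.674 (Nr1d1) to 0.316 (Cry1) and with those of Nr0b2 from -0.632 (Nr1d2) to 0.664 (Nr1d1). These are descriptions, the livers share the axis below, and the part of the hour of collection or of feeding was not tested.

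The axis that set 6 livers apart touched the members unequally. Across 24 livers the deviations from group means correlated with it at r = 0.95 for Baat, 0.75 for Nr1h4, 0.69 for Cyp7a1, -0.75 for Cyp27a1, -0.59 for Slc10a1 and -0.58 for Nr0b2, but at 0.03 for Abcb11 and 0.02 for Cyp8b1. The axis was computed from 6028 well expressed genes that did not include the members, which raises the r of those genes with it. Of them, 90.7% had a smaller absolute r than Baat, 55.7% than Nr1h4 and 55.6% than Cyp27a1. The share was 48.5% for Cyp7a1, 39.3% for Slc10a1 and 38.3% for Nr0b2. Apart from Baat these lay within the common range of the genes that made the axis, and all genes tested in liver were not compared. These are descriptions over the same libraries. In CR20-CTRL, Baat was 543.6 and 753.7 CPM in the 2 livers apart and 292.1 to 308.3 in the other 4. In FED-CTRL it was 445.3 and 477.6 CPM against 273.1 to 370.2. The genes lowest on the axis were longer (median exon length 9343 bases among those lowest and 4672 among those highest), and the part of RNA quality was not tested.

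**Figure D3:**
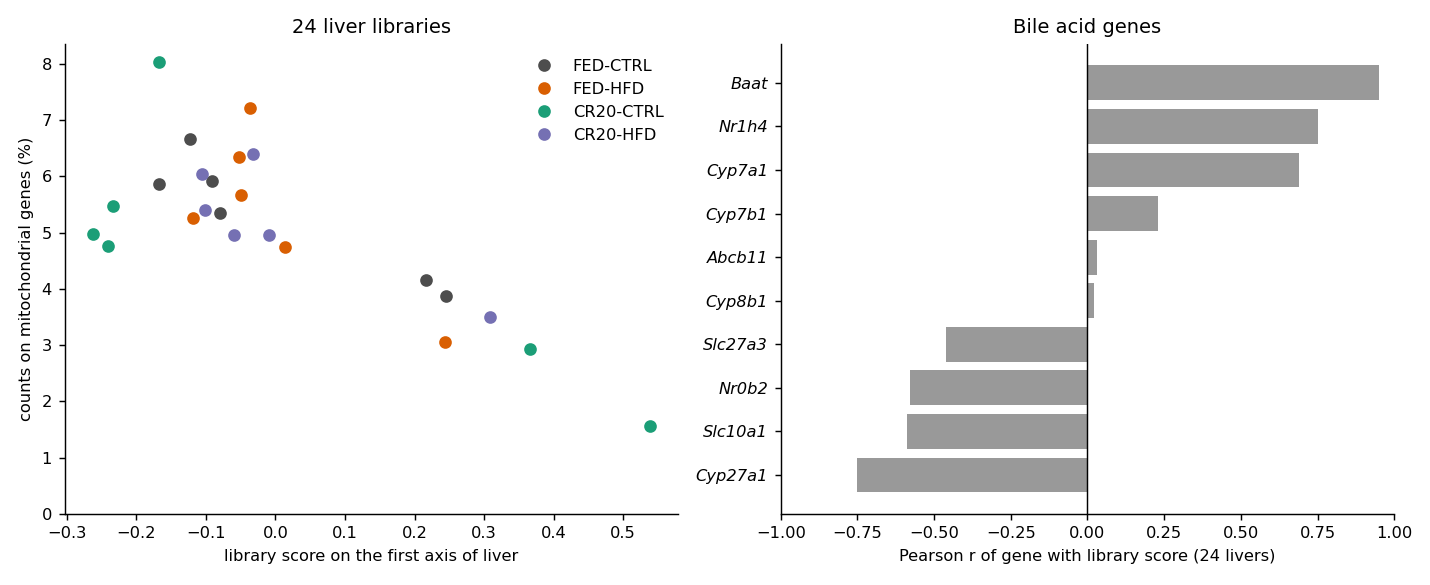
Left, the share of counts on mitochondrial genes in percent against the score on the first within-group axis, 1 point for each of 24 livers coloured by group, and right, bars of each gene's Pearson r with that score. The 6 livers apart (scores 0.216 to 0.539) hold 1.56% to 4.15% mitochondrial counts, below the 4.75% to 8.03% of the other 18, and Baat (0.95) and Cyp27a1 (-0.75) lie at opposite ends.

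Pairs of members were compared over the 24 livers after removing the group means, by permutation tests adjusted over 45 pairs. Of these, 6 passed an adjusted p under 0.05. The share among pairs of other liver genes, which also move with the axis, was not computed. Whether the count is particular to bile acid genes therefore cannot be told. Cyp7a1 and Nr1h4 varied together (Pearson r = 0.75, permutation p = 0.00018, adjusted p = 0.0081, Spearman rho = 0.70, permutation p = 0.00064), with r = 0.671 without the 2 livers farthest from the median of Cyp7a1. Among the 11 livers of mice numbered under 20 r was 0.496 and among the 8 numbered 40 and above 0.717, and the 5 in between were too few for a value. The other positive pairs were Baat with Nr1h4 (0.708, permutation adjusted p = 0.0247) and with Cyp7a1 (0.701, adjusted p = 0.0253), and Baat was negative against Cyp27a1 (-0.724) and Nr0b2 (-0.571), each with adjusted p = 0.0253. By Spearman's rho, adjusted over the same 45 pairs, only Cyp7a1 with Nr1h4 passed (permutation adjusted p = 0.0288), and the other 5 pairs, with values of 0.0556 to 0.121, did not.

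Cyp8b1 and Abcb11 ran against each other (r = -0.614, permutation p = 0.00265, adjusted p = 0.0253, rho = -0.618, permutation p = 0.00371, adjusted p = 0.0556, with r = -0.528 without the 2 farthest livers). By range of mouse number r was -0.044 under 20 and -0.809 at 40 and above, so the negative relation was not seen in the first range, and the difference between the ranges was not tested. Without the 6 livers apart 0 of 45 pairs passed, and with the axis removed 0 of 45, both choices made after seeing the data. Cyp7a1 with Nr1h4 was then 0.519 and 0.486, and Baat with Nr1h4 -0.208 and -0.022, whereas Cyp8b1 with Abcb11 was -0.698 (n = 18 livers, permutation p = 0.00308, adjusted p = 0.139) and -0.614 (adjusted p = 0.117). No pair holding Slc10a1 was among the 6.

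Over all 13786 other genes tested in liver, the nearest to Cyp7a1 across the 24 livers were Dctn3 (r = 0.858), Mettl5 (0.857) and Ccnh (0.832), and the lowest was Fhip1b (-0.862). For Cyp8b1 they were Rogdi (0.81), Ackr2 (0.714) and Klhdc4 (0.709), with Zfp933 lowest (-0.744). For Nr0b2 they were Sigirr (0.835), Osgin1 (0.824) and Apoc2 (0.824), with Vmp1 lowest (-0.868). These values share libraries with the axis above and carry no test.

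Beyond the 10, a list of 52 other bile acid genes was read in the same liver fit, and 46 were tested. Averaged over the maternal groups, 2 rose on HFD and 2 fell, beside 1.26% of all genes called, and the list's median was 0.06 beside -0.01 over all genes. Transport genes had 1 higher and 1 lower of 14, regulators 1 higher of 14, detoxification genes 1 lower of 4 and the remaining synthesis enzymes 0 of 14. The 4 called genes have different roles and are described in turn.

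Abcc3 encodes MRP3, which exports bile acid conjugates across the basolateral membrane to blood. Its medians were 136.2 CPM in FED-CTRL (84.92 to 160.5), 231.6 in FED-HFD (180.8 to 290.7), 115.6 in CR20-CTRL (94.29 to 152) and 201.8 in CR20-HFD (141.2 to 403.7). The FED groups did not overlap, as held in that direction for 0.326% of all genes. The averaged log2 fold change was 0.86 (SE 0.143, edgeR adjusted p = 0.00124).

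Nr1i3 encodes CAR, a xenobiotic receptor. It had medians of 66.65 CPM in FED-CTRL (52.73 to 87.91), 131.1 in FED-HFD (91.55 to 158.3), 54.87 in CR20-CTRL (47.15 to 71.08) and 107.4 in CR20-HFD (78.7 to 175.1), so that no HFD liver overlapped the CTRL livers of its maternal group, as held in that direction for 0.326% of all genes in FED mice and 0.181% in CR20 mice. Its averaged log2 fold change was 0.92 (SE 0.13, edgeR adjusted p = 0.000198). Cyp3a11, a hydroxylase that clears bile acids and drugs, fell by 1.30 on the log2 scale (SE 0.229, adjusted p = 0.00234), with medians of 971 CPM in FED-CTRL, 439.8 in FED-HFD, 1041 in CR20-CTRL and 362.4 in CR20-HFD. All 3 were also called within CR20 mice, where 0.522% of all genes were called and Abcc3 was 0.89, Nr1i3 0.95 and Cyp3a11 -1.41. Within FED mice, where 0.109% of all genes were called, 0 of the 46 were called by edgeR. There the same 3 genes were 0.82 (edgeR adjusted p = 0.166), 0.88 (0.0551) and -1.18 (0.264). The test of the difference between the maternal groups called 0 of the 46 by edgeR, with 2 at an unadjusted p under 0.05, beside 1.76% of all genes.

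Slc10a2 encodes ASBT, the apical sodium-dependent carrier. It fell by 0.92 on the log2 scale (SE 0.202, edgeR adjusted p = 0.0144), with medians of 37.33 CPM in FED-CTRL, 26.84 in FED-HFD, 48.81 in CR20-CTRL and 20.56 in CR20-HFD, and it was not called without the 6 livers apart (-0.57, adjusted p = 0.0947). Without them, Abcc3 (0.80), Nr1i3 (0.79) and Cyp3a11 (-1.24) were still called, as were 2.09% of all genes. The bile acid CoA ligase Slc27a5 had medians between 799.9 and 936.9 CPM and a log2 fold change of -0.08 (adjusted p = 0.805). The other list genes with the smallest p did not pass, among them the phospholipid flippase gene Abcb4 (0.36, adjusted p = 0.075), the FGF coreceptor Klb (-0.54, adjusted p = 0.0868) and the estrogen sulphotransferase Sult1e1 (1.37, adjusted p = 0.232).

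In the other tissues of the same mice, 9 of the 10 genes had a lower median than in liver and 1, Slc27a3, had a higher one. Only 4 of the 10 passed the filter on low counts in eWAT and 4 in pituitary. The other 6 in each entered the tissue comparison through their liver level alone and so had to differ, and their levels are given as a description. With the animal number as a block, 66.3% of 15290 genes were called against eWAT (30.2% higher in liver) and 76.8% of 16246 against pituitary (35.1% higher in liver). Of the members measured on both sides, Cyp27a1 (log2 difference 2.78), Cyp7b1 (8.67) and Nr1h4 (7.11) were called higher in liver than in eWAT, and Cyp27a1 (4.98), Cyp7b1 (5.00) and Nr0b2 (6.10) higher than in pituitary. Extraction differed between liver and the other tissues and cannot be told apart from tissue. Cyp7a1 was at 0 in 20 of 24 eWAT libraries and 22 of 24 pituitaries, and Abcb11 in 18 and 22. A count of 0 allows up to 0.259 CPM in eWAT and 0.164 CPM in pituitary (3 counts, counting error only).

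Cyp27a1 was the member most widely expressed. Its median RPKM was 111.8 in liver, 28.46 in eWAT and 5.545 in pituitary. Slc27a3 was 0.33 in liver, 1.602 in eWAT and 1.328 in pituitary, with log2 differences liver minus tissue of -1.30 (edgeR adjusted p = 8.27e-10) and -1.15 (adjusted p = 8.14e-08). Cyp7b1, at 15.84 RPKM in liver, was higher in pituitary (0.8318) than in eWAT (0.07372) in medians.

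**Figure D4:**
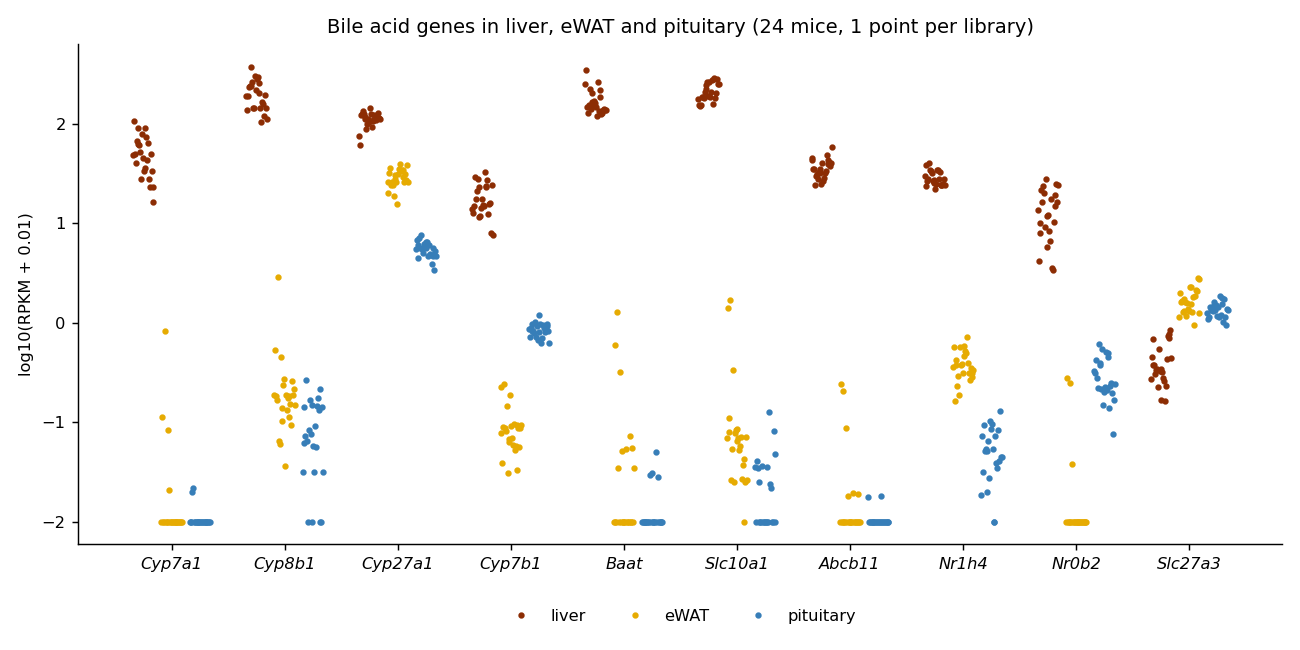
Level of the 10 genes as log10 of RPKM plus 0.01 in liver, eWAT and pituitary, with 1 point for each of 24 libraries a tissue. Slc27a3 is the only member whose liver median (0.33 RPKM) lies below those of eWAT (1.602) and pituitary (1.328), and Cyp27a1 is the one that keeps the highest level outside liver (28.46 and 5.545).

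In eWAT only Cyp27a1, Cyp7b1, Nr1h4 and Slc27a3 passed the filter, and 1 was called in any comparison. Cyp7b1 rose in FED-HFD against FED-CTRL, from 0.2485 to 0.9596 CPM (median 0.5968) to 0.5056 to 2.696 (median 1.245), a log2 fold change of 1.34 (SE 0.421, edgeR adjusted p = 0.0429, exact permutation p = 0.0325). In that comparison 8.01% of genes were called. The FED-HFD library highest in Cyp7b1, mouse 10 at 2.696 CPM, also held the highest hepatocyte marker sum, 822.7 CPM, and 18.956 CPM over the 6 members Cyp7a1, Cyp8b1, Baat, Slc10a1, Abcb11 and Nr0b2. CR20-CTRL mouse 5 had 567.2 and 9.246 CPM and FED-HFD mouse 13 had 148.5 and 3.401 CPM, while the other 21 libraries held 8.948 to 47.9 and 0.162 to 0.688 CPM. Without those 3 libraries, a choice made after seeing the data, Cyp7b1 was not called but its log2 fold change was still 0.98 (edgeR adjusted p = 0.104). Macrophage markers also summed to 2007 to 11890 CPM in FED-HFD against 863.1 to 1342 in FED-CTRL, with mouse 23 highest and its Cyp7b1 at 2.109 CPM. Mouse 12 followed at 4717 CPM with Cyp7b1 at 0.8358, within the FED-CTRL range. Mouse 10, highest in Cyp7b1, had a macrophage sum of 2073 CPM. The part of macrophage content was not tested.

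Cyp27a1 was higher in CR20-HFD than in FED-HFD eWAT, at 86.6 to 131.4 CPM (median 110.4) against 51.8 to 113.4 (80.19), by 0.48 on the log2 scale (edgeR adjusted p = 0.0375), which is below the size of 0.58. Macrophage markers summed to a median of 914 CPM in CR20-HFD (628 to 1220) and 3180 in FED-HFD (2010 to 11900), and their part was not tested. In that comparison 15.7% of genes passed the adjusted p and 9.73% were called. Nr1h4 and Slc27a3 were not called in any eWAT comparison, where the interaction called 2.42% of genes, CR20 against FED averaged over diets 3.96% and diet averaged over maternal groups 0.175%, and the comparisons of CR20-CTRL with CR20-HFD and with FED-CTRL 0% each by edgeR. In pituitary, Cyp27a1, Cyp7b1, Nr0b2 and Slc27a3 passed the filter. Of them 0 were called by edgeR in any comparison, beside 0.006% of all genes for averaged diet and 0% otherwise. At an unadjusted p under 0.05 there were also 0, and the share of all genes at that level is not given here.

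**Figure D5:**
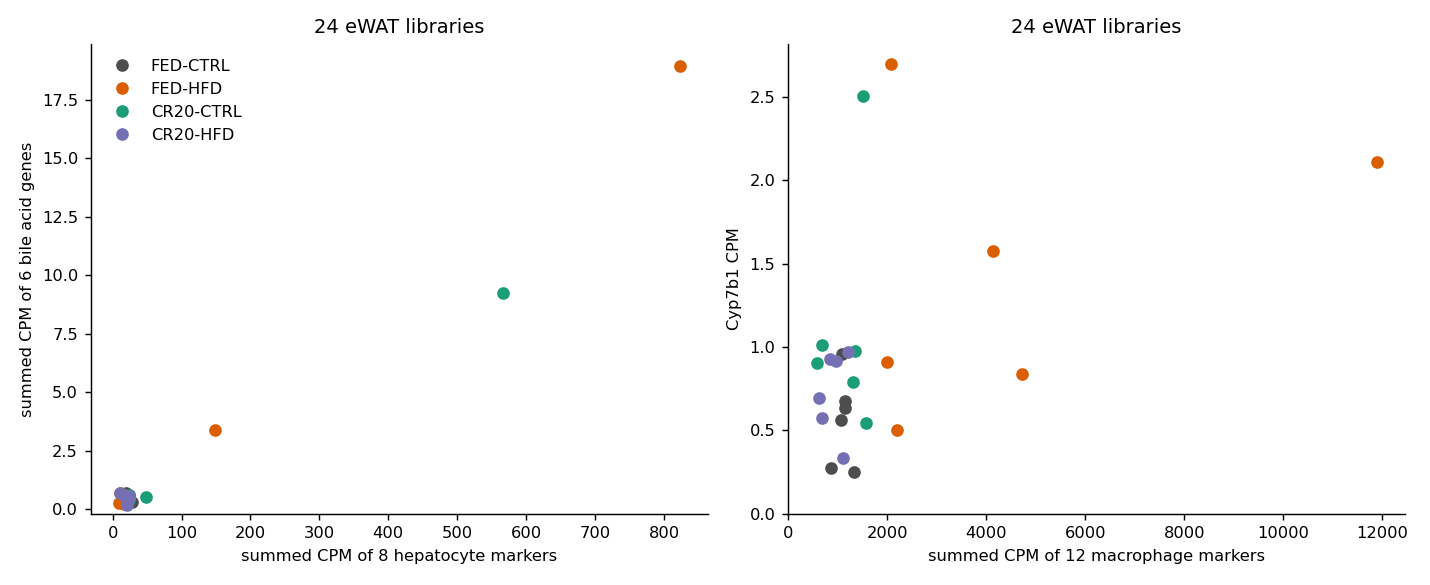
Left, the summed CPM of 6 bile acid genes (Cyp7a1, Cyp8b1, Baat, Slc10a1, Abcb11 and Nr0b2) against that of 8 hepatocyte markers, and right, Cyp7b1 CPM against the summed CPM of 12 macrophage markers, 1 point for each of 24 eWAT libraries coloured by group. Mice 10, 5 and 13 lie apart on the left at 822.7, 567.2 and 148.5 CPM of hepatocyte markers, and FED-HFD mouse 23 lies far right at 11890 CPM of macrophage markers with 2.109 CPM of Cyp7b1. FED-HFD mouse 12 follows at 4717 CPM of macrophage markers with 0.8358 CPM of Cyp7b1.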

How the data were processed

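RNA of liver, eWAT and pituitary was sequenced by the authors. The labels name a stranded total RNA kit and the methods also a stranded mRNA kit, so which was used is unsure. Liver was extracted by a column kit after lysis in DNA/RNA Shield, the other tissues with RNAzol. Per the labels and methods, reads were trimmed with Trimmomatic, aligned with STAR to GRCm39 and counted per Ensembl gene with featureCounts. The values the authors deposited are raw counts, used here as given. Gene names matched 54749 of 55416 identifiers. Each tissue was fitted with edgeR 4.0.16 (quasi-likelihood, TMM, all 24 libraries, genes with low counts removed by filterByExpr), with Benjamini-Hochberg adjustment over all genes tested. The thresholds, adjusted p at most 0.055 and log2 fold change of at least 0.58, follow the study's methods. limma 3.58.1 voom with quality weights and DESeq2 1.42.0 were alternatives. CPM are TMM-scaled, and RPKM divide by exon length. Single genes were also tested by two-sided exact permutation over mice, within maternal groups for averaged comparisons, and pairs with 100000 permutations. Liver and the other tissues were paired by mouse number in the labels; deviations of same-numbered libraries correlated by -0.238 to 0.303 (liver and eWAT). The fits were tested on simulated counts with known changes but without an axis shared by libraries, so the test does not cover the axis seen in liver. Counts of 3 set the floor, and depth was 9842813 to 27601208 per library. Bile acid genes named beyond the 10 were those called in liver, Slc27a5, and Abcb4, Klb and Sult1e1 out of the 10 with the smallest p. For Cyp7a1, Cyp8b1 and Nr0b2 the 3 highest and 1 lowest in correlation were named. Members and lists were chosen with earlier results of these data known. No dam or litter is given, so p-values measure spread between mice and take the mice as independent. The restriction was given to dams, so p-values for CR20 against FED may be too small.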

Additional observations from a re-analysis of the deposited data

Results flagged for a closer look

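Within groups of 6 mice, 5 of 56 groups tested held a library whose gap to its nearest neighbour was above Dixon's 95% critical share of the group's range, and chance gives about 1 in 20. In liver these were Cyp7b1 in FED-CTRL mouse 41 at 316.6 CPM, Baat in CR20-HFD mouse 32 at 565.6 CPM, Nr1h4 in the same mouse at 167.4 CPM, Nr0b2 in CR20-CTRL mouse 5 at 8.87 CPM and Slc27a3 in FED-HFD mouse 40 at 0.5804 CPM. Mice 41, 32 and 5 are among the 6 livers that stood apart, and the gap-to-range values were 0.681, 0.719, 0.718, 0.656 and 0.738 in that order. The cause was not tested.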

How the results depend on the processing

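In liver, 0 of the 10 genes were called under the main test in any comparison, and the count stayed 0 under the alternatives with these exceptions: 1 (Slc10a1) for diet averaged over maternal groups on adjusted p alone, and 1 (Slc10a1) for diet in CR20 mice without the 6 livers apart. Leaving out each mouse in turn gave the averaged Slc10a1 log2 fold change a range of -0.47 to -0.39 with edgeR adjusted p of 0.00277 to 0.044, and the other alternatives gave adjusted p of 5.17e-05 to 0.0603, the last without the filter. For Abcb11 the leave-one-out range was -0.41 to -0.32 with adjusted p of 0.0334 to 0.118. With the library axis as a covariate, Abcb11 had an adjusted p of 0.0133, and Slc10a1 one of 0.00146, and the axis was estimated from the same libraries, which these values do not allow for.

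In eWAT, the call of Cyp7b1 in FED-HFD against FED-CTRL went to 0 without a filter, with a filter of over 1 CPM, which removes the gene, with animal-number range as a covariate, with only the groups compared and without the 3 libraries high in hepatocyte markers, and leaving out each mouse gave 0 to 1, while its log2 fold change stayed at 0.98 to 1.56. Cyp27a1 in CR20-HFD against FED-HFD ran from 0.39 to 0.62, with adjusted p of 0.00583 to 0.109. For CR20-HFD against FED-HFD the count was 1 on adjusted p alone (Cyp27a1), 1 without a filter (Cyp7a1) and 0 to 1 on leaving out mice. That call of Cyp7a1 rests on levels near the floor: it was at 0 in 6 of 6 CR20-HFD and 4 of 6 FED-HFD libraries, with at most 3.37 CPM. For the interaction the count was 1 with DESeq2 (Cyp7b1) and 0 to 1 on leaving out mice. The number of pairs went from 6 to 0 without the 6 livers apart and with the axis removed. The cause was not tested.

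Diet log2 fold changes averaged over maternal groups changed sign for Baat (0.01 with limma voom, 0.03 without the 6 livers), Nr1h4 (-0.0026 with animal-number range, -0.02 to 0.07 leaving out mice), Slc27a3 (0.11 with animal-number range, 0.003 with the axis, -0.09 to 0.09 leaving out mice) and Nr0b2 (-0.27 to 0.05 leaving out mice). Cyp7a1 in CR20 mice was 0.41 with limma voom, 0.12 without the 6 livers, 0.008 with the axis and -0.33 to 0.31 leaving out mice, and the interaction of Slc10a1 was -0.10 with limma voom and -0.13 without the 6 livers. The replicate block on mouse number, by which tissues were paired, changed no call: 10 of 10 genes were past the thresholds in both tissue comparisons without it, 6 of which in each had to differ.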
